A study of Mus musculus with 30 samples.

Results

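The genes described here are those that a fat cell uses to make, store and release fat, read in transplanted mammary tumors of mice that were never obese, obese, or weight-reduced in 3 ways. They were chosen as a list of 35 gene symbols, each read on its brightest probe set. Of these, 32 were measured among 19505 named genes, 1 of them (Tusc5) under its current symbol Trarg1. Srebf1, Cfd and Adrb3 were not analysed here. By role the 32 comprise 3 transcription factors, 4 lipid droplet proteins, 3 abundant adipocyte products, 5 genes of lipolysis and heat production, 4 of uptake, 7 of fatty acid synthesis and 6 of triglyceride assembly.

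A white adipocyte holds triglyceride in a single large droplet coated with perilipins. It takes up fatty acids that lipoprotein lipase frees from circulating lipoproteins, makes further fatty acids from glucose through citrate and malonyl-CoA, and joins them to glycerol phosphate. On demand the triglyceride is cut back to fatty acids and glycerol. The program is set up by the nuclear receptor Pparg together with Cebpa. The steps of fatty acid synthesis also run in carcinoma cells, which build membranes from the product, whereas perilipin 1, Cidec and Fabp4 are known as adipocyte genes. A tumor grown in the mammary fat pad is surrounded by adipocytes, and tissue taken with it carries their RNA.

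All tumors came from E0771, a single mammary carcinoma line of C57BL/6 origin, placed in the 4th mammary fat pad of female C57BL/6NCrl mice, 25 weeks past their first allocation to diets. CON-LFD mice ate the control low-fat diet D12450J throughout, had a sham operation and were never obese. All other mice were first made obese on D12492, a diet labelled as 60% high fat. After a sham operation, DIO-HFD mice were kept on it. DIO-VSG mice had a vertical sleeve gastrectomy and then ate the low-fat diet. DIO-CCR and DIO-ICR mice had a sham operation and lost weight on calorie restriction, either chronic or intermittent (mild on most days and strong on others), with diets of their own that were set against the intake of CON-LFD mice. Obesity and the high-fat diet cannot be told apart in DIO-HFD against CON-LFD. Surgery and the change of diet cannot be told apart in DIO-VSG, nor can restriction and diet composition in DIO-CCR and DIO-ICR. Each group held 6 tumors, each from a mouse of its own, with 1 array per tumor. Tumors are named below by group and replicate number, which carries no order.

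The values are log2 expression levels between 1.48 and 18.57, and the array medians lay between 6.41 and 6.79. A difference of 1 is a doubling. Levels of different genes come from different probes and were not set against each other. Some tumors carried genes of other neighbouring tissue. The mean of 14 skeletal muscle genes stood more than 1 above the median array in CON-LFD 5, DIO-VSG 3, DIO-VSG 4 and DIO-CCR 3 (by 2.98, 2.29, 6.22 and 1.17), and the mean of 8 lymph node genes did so in DIO-HFD 5, DIO-VSG 1 and DIO-VSG 5 (by 3.09, 6.56 and 1.65). The mean of 14 mammary epithelium genes did so in DIO-VSG 1 (by 2.78). That of 7 fat pad fibroblast genes did so in DIO-VSG 1, DIO-CCR 3 and DIO-ICR 1 (by 1.91, 1.29 and 1.16).

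The mean level of adipocyte markers that are not among the 32 genes was higher in the calorie-restricted tumors than in the DIO-HFD and CON-LFD tumors. This mean of 10 markers (Adipoq, Lep, Retn, Adig, Lgals12, Mrap, Slc7a10, Hcar1, Tshr and Aoc3), here called the adipocyte marker mean, lay between 4.59 and 5.98 (median 5.29) in DIO-HFD and between 4.35 and 5.68 (median 4.86) in CON-LFD. It lay between 5.93 and 8.58 (median 6.68) in DIO-CCR and between 6.03 and 7.48 (median 6.62) in DIO-ICR. All 6 DIO-ICR tumors and 5 of 6 DIO-CCR tumors stood above the highest DIO-HFD tumor. The mean was 1.60 higher in DIO-CCR than in DIO-HFD (exact permutation test, two-sided, p = 0.00433, adjusted over 10 comparisons 0.0108). It was 1.41 higher in DIO-ICR (exact p = 0.00216, the smallest that 6 against 6 allow, adjusted 0.00722). Against CON-LFD it was 1.91 higher in DIO-CCR and 1.73 higher in DIO-ICR (exact p = 0.00216, adjusted 0.00722, for each), with no overlap of the groups. In DIO-VSG it lay between 4.40 and 8.29 (median 5.07), and the difference of 0.36 from DIO-HFD (exact p = 0.693, adjusted 0.725) turned to -0.19 without DIO-VSG 1. Relative to DIO-VSG the mean was 1.24 higher in DIO-CCR (exact p = 0.117, adjusted 0.206) and 1.06 higher in DIO-ICR (exact p = 0.123, adjusted 0.206), and 1 of 6 DIO-CCR tumors and 0 of 6 DIO-ICR tumors stood above the highest DIO-VSG tumor. CON-LFD differed from DIO-HFD by -0.31 (exact p = 0.323, adjusted 0.46). In bulk tumor RNA, more adipocytes and more of these RNAs per adipocyte cannot be told apart.

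The markers did not all behave alike. Retn, which encodes the adipokine resistin, rose in both restricted groups relative to DIO-HFD, by 4.80 ± 1.06 in DIO-CCR (adjusted p = 0.0432) and by 5.18 ± 1.06 in DIO-ICR (adjusted p = 0.0255), and so did no other marker. Adipoq, the adiponectin gene, differed by 3.06 ± 1.23 and 3.12 ± 1.23 (adjusted p = 0.287 and 0.329), and Lep, the leptin gene, by only 0.67 and 0.27. The marker mean was highest in DIO-CCR 3 (8.58) and DIO-VSG 1 (8.29). The next tumors of their groups were DIO-CCR 5 (6.98) and DIO-VSG 5 (6.145).

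**Figure D1:**
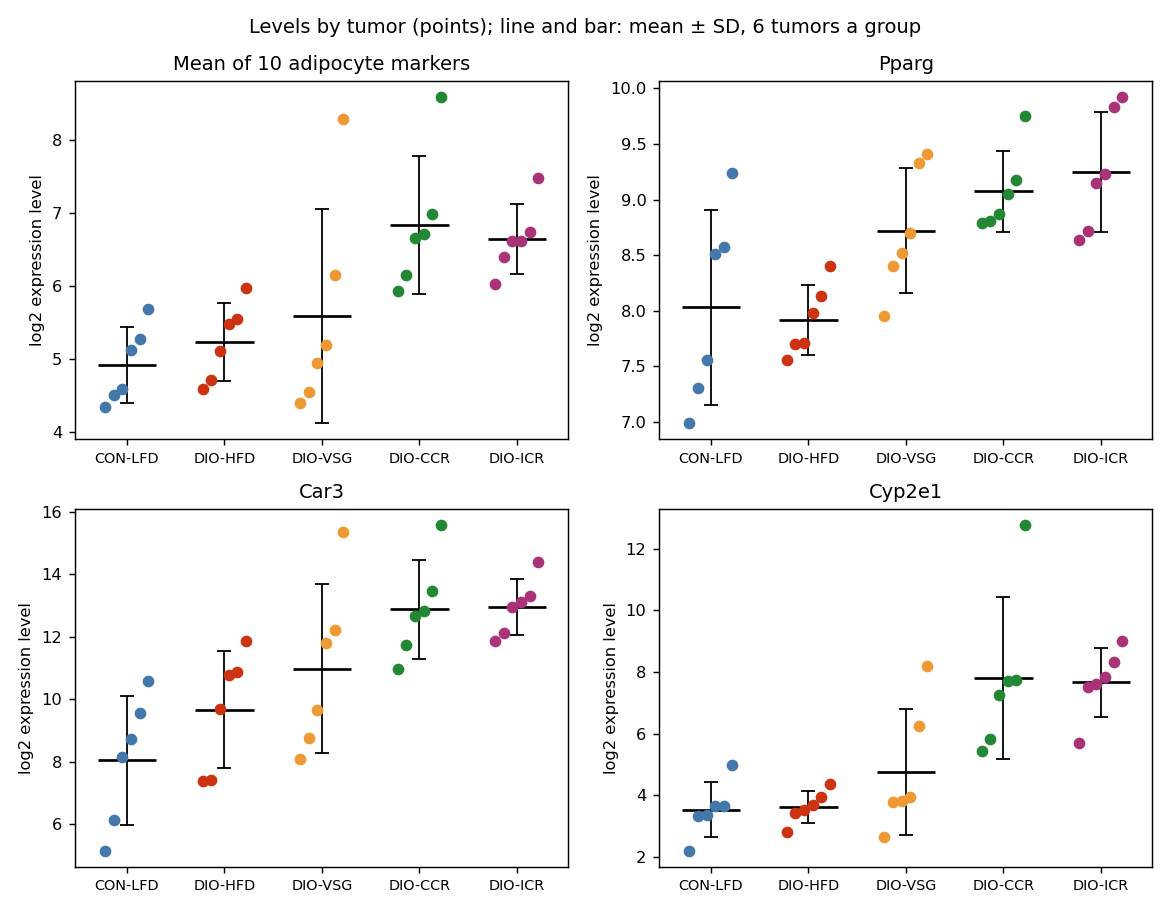
Log2 expression levels by tumor (points) for the mean of 10 adipocyte markers and for Pparg, Car3 and Cyp2e1, with the group on the horizontal axis and the mean ± SD of 6 tumors as line and bar. The DIO-CCR and DIO-ICR tumors lie above all DIO-HFD tumors for Pparg in both groups (from 8.64 against at most 8.40) and for Cyp2e1 (from 5.42 against at most 4.37).

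Relative to DIO-HFD, all 32 genes were higher in sign in DIO-CCR and all 32 in DIO-ICR, but few passed the test one by one. The median difference over the 32 was 0.99 in DIO-CCR and 0.86 in DIO-ICR, against -0.02 and -0.03 over all 19505 genes, of which 46.3% and 44.1% were higher in sign. By limma with adjustment over all genes, 1 of 32 rose in DIO-CCR (Cyp2e1), where 0.354% of all genes passed, and 2 of 32 rose in DIO-ICR (Cyp2e1 and Pparg), where 0.461% passed. At an unadjusted p under 0.05, 19 of 32 were higher in DIO-CCR and 11 of 32 in DIO-ICR, each against 4.8% of all genes. The comparisons with DIO-HFD share those 6 control tumors. In the F-test over all 5 groups, 3 of 32 passed (Pparg, Car3 and Cyp2e1), where 1.64% of all genes did.

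DIO-VSG and CON-LFD gave no call relative to DIO-HFD. In DIO-VSG 0 of 32 genes passed (0.154% of all genes did), 27 were higher in sign with a median difference of 0.24, and 1 was higher at an unadjusted p under 0.05 (3.9% of all genes). Of all genes, 40.1% were higher in sign. In CON-LFD 0 of 32 passed (0.995% of all genes did), 10 were higher and 21 lower in sign with a median of -0.16 (42.7% of all genes were higher), and 2 were higher at an unadjusted p under 0.05 (4.26% of all genes). Relative to CON-LFD, 2 of 32 rose in DIO-CCR (Cyp2e1 and Car3, where 0.415% of all genes passed) and 3 of 32 in DIO-ICR (Car3, Cyp2e1 and Pparg, where 1.57% passed). None of 32 passed for DIO-VSG against CON-LFD (0.0256% of all genes), DIO-CCR against DIO-VSG (0.0513%), DIO-ICR against DIO-VSG (0.0308%) or DIO-CCR against DIO-ICR, where 0% of all genes passed. At an unadjusted p under 0.05, 21 of 32 were higher in DIO-CCR (6.56% of all genes), 18 in DIO-ICR (7.9%) and 2 in DIO-VSG (4.64%) than in CON-LFD. Against DIO-VSG the counts were 6 in DIO-CCR (5.42%) and 5 in DIO-ICR (4.85%), and 0 of 32 were higher in DIO-CCR than in DIO-ICR (2.46%).

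Genes of macrophages were mostly lower in sign in CON-LFD than in every other group. Relative to DIO-HFD, 1 of 10 macrophage markers was higher and 9 were lower in sign in CON-LFD (median -0.60, 42.7% of all genes higher). None passed, and 6 had an unadjusted p under 0.05 (12.2% of all genes). In DIO-VSG 8 of 10 were higher in sign than in CON-LFD (median 0.57). None passed (0.0256% of all genes did), and 6 were higher at an unadjusted p under 0.05 (4.64%). Of the 10, 6 rose in DIO-ICR relative to CON-LFD (Csf1r, Itgam, C1qa, C1qb, C1qc and Adgre1), where 1.57% of all genes passed. All 10 were higher in sign there, with a median difference of 0.89. In DIO-CCR 1 of 10 rose relative to CON-LFD (Csf1r, where 0.415% of all genes passed), with a median of 0.75. At an unadjusted p under 0.05, 9 were higher there (6.56% of all genes). Relative to DIO-HFD 0 of 10 passed in DIO-CCR or DIO-ICR, with medians of 0.32 and 0.42. At an unadjusted p under 0.05, 2 and 3 were higher, each against 4.8% of all genes. The mean level of the 10 lay between 11.07 and 11.78 in CON-LFD, 11.68 and 12.69 in DIO-HFD, 11.64 and 12.32 in DIO-VSG, 11.57 and 12.50 in DIO-CCR, and 11.98 and 12.80 in DIO-ICR, so the DIO-ICR and CON-LFD ranges did not overlap. On the adipocyte marker mean, 0 of the 10 slopes passed (2 at an unadjusted p under 0.05). Some of the 32 genes, Fabp4 and Cd36 among them, are also made by macrophages. The part of the macrophage genes in the differences from CON-LFD was not tested.

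**Figure D2:**
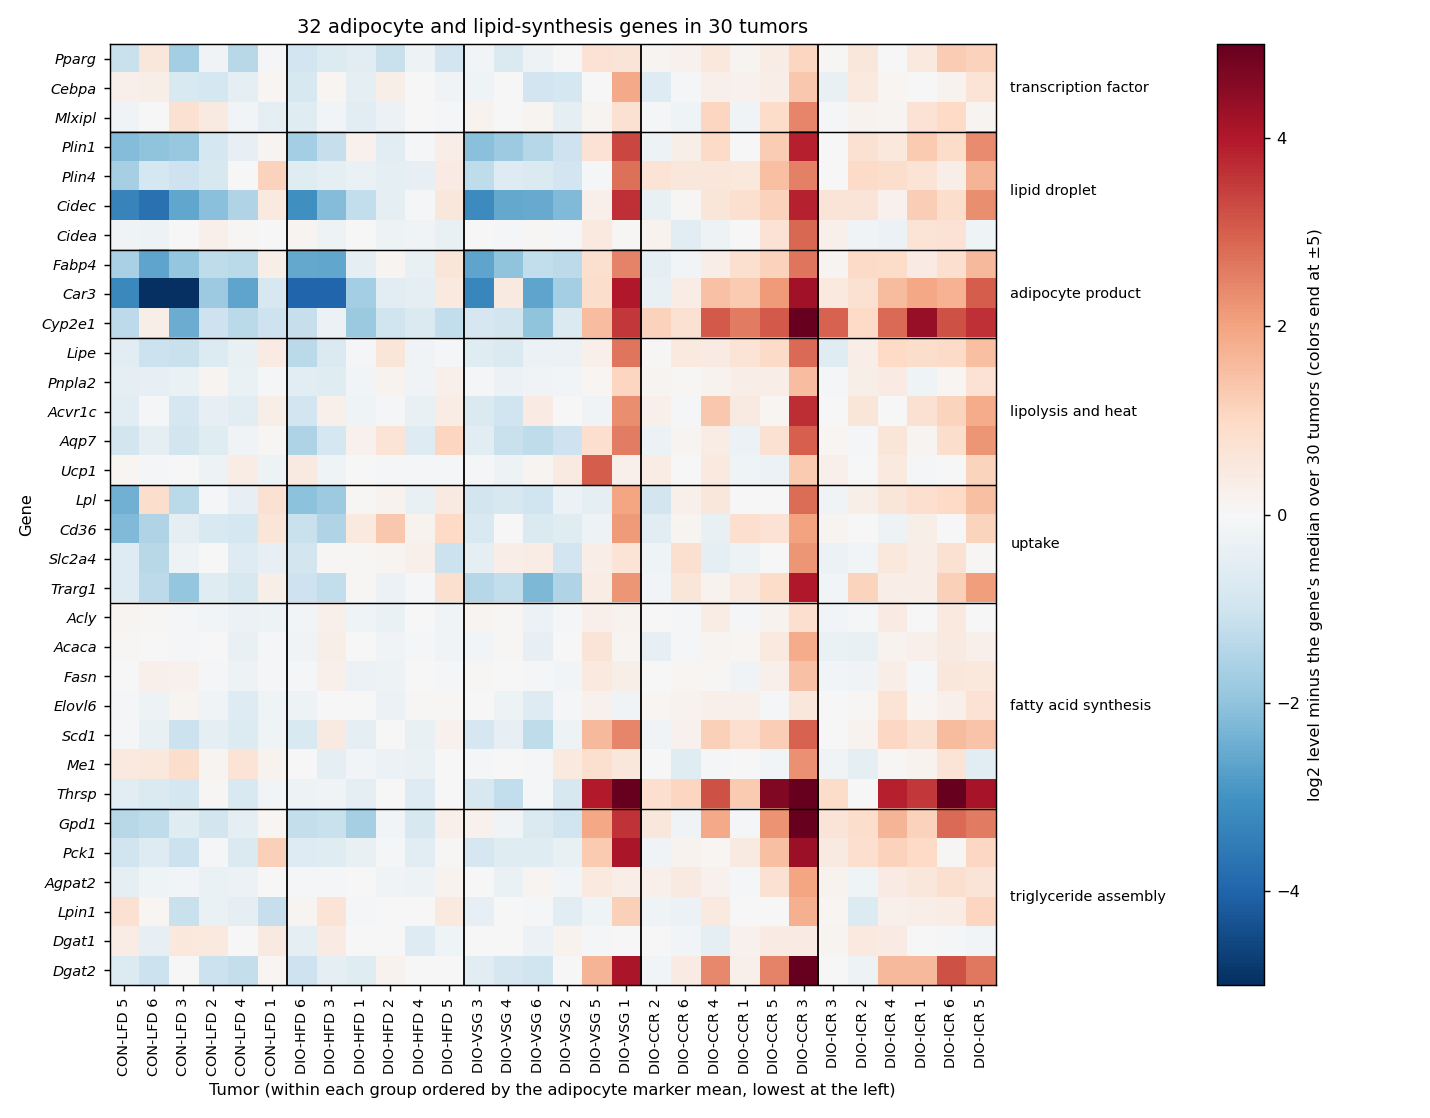
Each row is 1 of the 32 genes, grouped by role, and each column 1 of 30 tumors, ordered within its group by the adipocyte marker mean; color gives the log2 level minus the gene's median over the tumors. DIO-CCR 3 held the highest level of 25 of the 32 genes and DIO-VSG 1 that of 3.

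Single tumors weighed on these counts. DIO-CCR 3 had the highest level of 25 of the 32 genes and DIO-VSG 1 that of 3. Without these 2 tumors, a choice made after the data were seen, 15 of 32 genes rose in DIO-ICR relative to CON-LFD, where 3.18% of all genes passed. These were Cyp2e1, Car3, Gpd1, Cidec, Plin1, Thrsp, Agpat2, Trarg1, Pparg, Fabp4, Lipe, Dgat2, Plin4, Scd1 and Acvr1c. Relative to DIO-HFD the same fit gave 4 of 32 in DIO-ICR (Cyp2e1, Gpd1, Pparg and Thrsp, where 1.11% of all genes passed) and 1 of 32 in DIO-CCR (Cyp2e1, where 0.472% passed). Neither of the 2 tumors belongs to DIO-ICR, CON-LFD or DIO-HFD, so those DIO-ICR differences kept their size. Only the spread shared by all groups and the adjustment over genes changed for them. None of the calls with all tumors held whichever single array was left out.

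Among the transcription factors, Pparg was the one that rose. Pparg encodes the nuclear receptor that starts and maintains adipocyte differentiation. Its level ran from 7.56 to 8.40 (median 7.85) in DIO-HFD, 6.99 to 9.24 (median 8.04) in CON-LFD, 7.95 to 9.41 (median 8.61) in DIO-VSG, 8.79 to 9.75 (median 8.96) in DIO-CCR and 8.64 to 9.92 (median 9.19) in DIO-ICR. Every tumor of both restricted groups lay above every DIO-HFD tumor, as was the case for 0.431% of all genes in DIO-CCR and 0.543% in DIO-ICR, while the CON-LFD tumors spread over both ranges. Pparg was 1.34 ± 0.31 (SE) higher in DIO-ICR than in DIO-HFD, or 2.52-fold (limma, 95% interval 0.70 to 1.97, adjusted p = 0.0446), and 1.22 ± 0.31 higher than in CON-LFD (adjusted p = 0.0433). In DIO-CCR it was 1.16 ± 0.31 higher than in DIO-HFD (adjusted p = 0.0893), and in DIO-VSG 0.81 ± 0.31 (adjusted p = 0.355). With 1 array left out, the call against DIO-HFD was kept only without DIO-ICR 3 or DIO-ICR 4, and the adjusted p lay between 0.0302 and 0.145. The call against CON-LFD was lost without CON-LFD 3, 4 or 5 or DIO-ICR 1, 2, 5 or 6 (adjusted p up to 0.137). The call against DIO-HFD was also lost without the tumors with lymph node genes (adjusted p = 0.0558). The call against CON-LFD was also lost with quantile normalization (adjusted p = 0.0571), without the tumors with muscle genes (0.0837) and with only those groups in the fit (0.119).

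Mlxipl encodes the carbohydrate response factor ChREBP, which drives lipogenic genes when glucose is plentiful. Its level ran from 3.07 to 3.66 (median 3.45) in DIO-HFD, 3.23 to 4.44 (median 3.59) in CON-LFD, 3.19 to 4.42 (median 3.79) in DIO-VSG, 3.46 to 6.12 (median 4.10) in DIO-CCR and 3.61 to 4.66 (median 3.82) in DIO-ICR, close to the low end of the scale outside DIO-CCR 3. It differed from DIO-HFD by 0.95 ± 0.32 in DIO-CCR and 0.62 ± 0.32 in DIO-ICR (adjusted p = 0.193 and 0.499). Cebpa, the partner of Pparg in late differentiation, differed by 0.41 and 0.35 and did not pass in any comparison.

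Of the adipocyte products, Cyp2e1 and Car3 rose in restricted tumors. Cyp2e1, a cytochrome P450 that is abundant in liver and also made by adipocytes, ran from 2.81 to 4.37 (median 3.59) in DIO-HFD, 2.20 to 4.97 (median 3.50) in CON-LFD, 2.65 to 8.19 (median 3.88) in DIO-VSG, 5.42 to 12.77 (median 7.49) in DIO-CCR and 5.68 to 9.01 (median 7.73) in DIO-ICR. All 12 restricted tumors lay above all 12 DIO-HFD and CON-LFD tumors, and 2 DIO-VSG tumors, DIO-VSG 1 and DIO-VSG 5, lay among the restricted ones. Cyp2e1 was 4.17 ± 0.89 higher in DIO-CCR than in DIO-HFD (95% interval 2.35 to 5.99, adjusted p = 0.0418) and 4.05 ± 0.89 higher in DIO-ICR (95% interval 2.23 to 5.86, adjusted p = 0.0343), or 18-fold and 16.5-fold. Relative to CON-LFD it was 4.27 ± 0.89 and 4.15 ± 0.89 higher (adjusted p = 0.0226 and 0.0179). The DIO-HFD and CON-LFD levels lay close to the low end of the scale, so the size of these differences and folds is uncertain. With 1 array left out, the DIO-CCR call against DIO-HFD was kept only without DIO-HFD 3, DIO-CCR 2 or DIO-CCR 6, and the DIO-ICR call only without DIO-HFD 2 or DIO-ICR 3. The differences then lay between 3.17 and 4.64 and between 3.78 and 4.44, with adjusted p up to 0.109 and 0.0896. Against CON-LFD the DIO-ICR call was lost without CON-LFD 3 (adjusted p = 0.065), and the DIO-CCR call without CON-LFD 2, 3 or 4 or DIO-CCR 4 or 5 (adjusted p up to 0.0782). The DIO-CCR calls were also lost without the tumors that carried muscle genes, DIO-CCR 3 among them, and with only the groups compared in the fit.

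Car3 encodes carbonic anhydrase 3, one of the most abundant adipocyte proteins and also a protein of slow skeletal muscle. Its level ran from 7.39 to 11.85 (median 10.23) in DIO-HFD, 5.15 to 10.57 (median 8.43) in CON-LFD, 8.09 to 15.36 (median 10.73) in DIO-VSG, 10.98 to 15.58 (median 12.75) in DIO-CCR and 11.87 to 14.38 (median 13.03) in DIO-ICR. All tumors of both restricted groups lay above all CON-LFD tumors, as was the case for 0.502% of all genes in DIO-CCR and 0.969% in DIO-ICR, and those of DIO-ICR lay above all DIO-HFD tumors. Car3 was 4.84 ± 1.04 higher in DIO-CCR than in CON-LFD and 4.91 ± 1.04 higher in DIO-ICR (adjusted p = 0.0273 and 0.017). Relative to DIO-HFD the differences were 3.22 ± 1.04 and 3.29 ± 1.04 (adjusted p = 0.175 and 0.186). In DIO-VSG 4, the tumor richest in muscle genes, Car3 stood at 11.80 and Adipoq at 4.55. The DIO-ICR call was lost without CON-LFD 3 (adjusted p = 0.0641), and the DIO-CCR call without CON-LFD 3, 5 or 6 or DIO-CCR 3, 4 or 5 (adjusted p up to 0.0904) and, as well, without the tumors with muscle genes and with only those groups in the fit. Fabp4, the fatty acid carrier of adipocytes, which macrophages also make, differed from DIO-HFD by 1.60 in DIO-CCR and 1.69 in DIO-ICR and passed in no comparison with all tumors.

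The lipid droplet proteins were higher in sign in both restricted groups, and none passed. Cidec, which joins small droplets into large ones, ran from 4.98 to 8.61 (median 7.20) in DIO-HFD, 4.31 to 8.55 (median 5.71) in CON-LFD, 4.87 to 11.69 (median 5.68) in DIO-VSG, 7.66 to 11.88 (median 8.76) in DIO-CCR and 8.26 to 10.38 (median 8.81) in DIO-ICR. The lowest DIO-ICR tumor (8.26) stood below only 1 of the DIO-HFD tumors and 1 of the CON-LFD tumors. Cidec differed from DIO-HFD by 2.08 ± 0.90 and 2.06 ± 0.90 (adjusted p = 0.331 and 0.397). Plin4, a perilipin of nascent droplets, ran from 4.79 to 5.81 (median 4.97) in DIO-HFD, 3.75 to 6.54 (median 4.56) in CON-LFD, 4.12 to 8.15 (median 4.72) in DIO-VSG, 5.91 to 7.91 (median 6.03) in DIO-CCR and 5.36 to 7.09 (median 6.18) in DIO-ICR. All DIO-CCR tumors lay above all DIO-HFD tumors for Plin4, by 1.37 ± 0.50 on average (adjusted p = 0.244). Plin1, which guards the droplet surface against lipases, ran from 3.77 to 5.81 (median 5.14) in DIO-HFD, 3.32 to 5.62 (median 4.09) in CON-LFD, 3.37 to 8.80 (median 4.23) in DIO-VSG, 5.20 to 9.35 (median 6.09) in DIO-CCR and 5.47 to 7.82 (median 6.32) in DIO-ICR. It differed from DIO-HFD by 1.51 ± 0.72 and 1.47 ± 0.72 (adjusted p = 0.403 and 0.47). Cidea, a droplet protein known from brown fat, stayed between 3.00 and 4.31 in every tumor but DIO-CCR 3, where it stood at 6.44.

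Genes of lipolysis did not pass either. Lipe encodes hormone-sensitive lipase, and its level ran from 6.73 to 8.69 (median 7.92) in DIO-HFD, 6.95 to 8.49 (median 7.45) in CON-LFD, 7.33 to 10.73 (median 7.77) in DIO-VSG, 8.14 to 10.90 (median 8.64) in DIO-CCR and 7.48 to 9.59 (median 8.98) in DIO-ICR. The DIO-VSG 1 and DIO-CCR 3 tumors stood apart from the rest of their groups. Lipe differed from DIO-HFD by 1.20 ± 0.48 and 0.98 ± 0.48 (adjusted p = 0.284 and 0.468). Pnpla2, the triglyceride lipase that makes the first cut, ran from 11.24 to 12.12 (median 11.70) in DIO-HFD, 11.39 to 11.99 (median 11.52) in CON-LFD, 11.54 to 12.91 (median 11.76) in DIO-VSG, 11.91 to 13.39 (median 12.09) in DIO-CCR and 11.63 to 12.56 (median 12.05) in DIO-ICR, a narrower range. The differences were 0.60 ± 0.23 and 0.38 ± 0.23 (adjusted p = 0.263 and 0.605). Acvr1c, an activin-type receptor of adipocytes, and Aqp7, the channel through which glycerol leaves, differed by 1.12 and 0.80 in DIO-CCR and by 0.89 and 0.84 in DIO-ICR. Ucp1, which turns fuel into heat in brown and beige adipocytes, stayed between 1.95 and 3.52 except in DIO-VSG 5, where it stood at 5.26. Of 9 further brown fat markers, Dio2 rose in DIO-CCR relative to DIO-HFD (1.33 ± 0.27, adjusted p = 0.0372) and the other 8 did not pass there.

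Uptake genes overlapped between all groups. Trarg1, which helps bring the insulin-responsive glucose transporter to the surface of adipocytes, ran from 5.18 to 7.19 (median 6.22) in DIO-HFD, 4.46 to 6.69 (median 5.67) in CON-LFD, 4.13 to 8.59 (median 5.07) in DIO-VSG, 6.26 to 10.38 (median 6.94) in DIO-CCR and 6.25 to 8.48 (median 7.13) in DIO-ICR. It differed from DIO-HFD by 1.30 ± 0.63 and 1.11 ± 0.63 (adjusted p = 0.407 and 0.572). Slc2a4, that transporter itself and also a muscle gene, ran from 3.66 to 5.01 (median 4.80) in DIO-HFD, 3.35 to 4.72 (median 4.22) in CON-LFD, 3.79 to 5.44 (median 5.07) in DIO-VSG, 4.28 to 6.96 (median 4.64) in DIO-CCR and 4.44 to 5.51 (median 4.93) in DIO-ICR. Its differences were 0.59 ± 0.36 and 0.45 ± 0.36 (adjusted p = 0.549 and 0.738), and DIO-CCR 3 was the highest tumor. Lpl, the lipase that frees fatty acids at the vessel wall, differed by 1.04 and 1.27, and Cd36, a fatty acid receptor that macrophages and endothelium share, by 0.40 and 0.16.

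None of the 7 genes of fatty acid synthesis passed in the fit of all tumors. Acly, which makes cytosolic acetyl-CoA, stayed between 13.25 and 14.44 over the 30 tumors, and Elovl6, which lengthens palmitate, between 12.29 and 13.64. Elovl6 ran from 12.65 to 12.99 (median 12.93) in DIO-HFD, 12.29 to 13.07 (median 12.72) in CON-LFD, 12.29 to 13.13 (median 12.80) in DIO-VSG, 12.81 to 13.51 (median 13.15) in DIO-CCR and 12.90 to 13.64 (median 13.11) in DIO-ICR. With a trended, robust variance it passed for DIO-ICR against CON-LFD. It differed from DIO-HFD by 0.28 ± 0.15 in DIO-CCR and 0.37 ± 0.15 in DIO-ICR (adjusted p = 0.456 and 0.347), and Acly by 0.31 ± 0.15 and 0.21 ± 0.15 (95% intervals 0.01 to 0.61 and -0.09 to 0.51). Fasn, the fatty acid synthase, differed by 0.35 ± 0.20 and 0.25 ± 0.20 (95% intervals -0.05 to 0.75 and -0.15 to 0.65), and Acaca, which makes malonyl-CoA, by 0.41 and 0.13. Apart from DIO-CCR 3 (15.01), Fasn stayed between 13.24 and 14.08. Thrsp, also called Spot 14, a nuclear protein known from lipogenic tissue, ran from 3.69 to 4.34 (median 4.14) in DIO-HFD, 3.47 to 4.38 (median 3.68) in CON-LFD, 3.12 to 9.81 (median 3.92) in DIO-VSG, 5.17 to 12.41 (median 6.58) in DIO-CCR and 4.32 to 10.55 (median 8.04) in DIO-ICR. Thrsp stayed below 4.40, close to the low end of the scale, in all 12 CON-LFD and DIO-HFD tumors, and all DIO-CCR tumors lay above them. The differences from DIO-HFD were 3.44 ± 1.13 and 3.36 ± 1.13 (adjusted p = 0.182 and 0.222). Scd1, the stearoyl-CoA desaturase, differed by 1.21 and 1.00, and all its DIO-ICR tumors lay above all CON-LFD tumors. Me1, the malic enzyme that yields NADPH, was the 1 gene of the 32 whose CON-LFD tumors (12.88 to 13.63) all lay above the DIO-HFD tumors (12.30 to 12.74), as was the case for 0.518% of all genes. That difference was 0.69 ± 0.30 (adjusted p = 0.329).

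In triglyceride assembly, Gpd1 and Dgat2 had the larger differences. Gpd1, which makes glycerol phosphate from a glycolytic intermediate, ran from 5.06 to 6.97 (median 5.75) in DIO-HFD, 5.31 to 6.81 (median 5.93) in CON-LFD, 5.70 to 10.30 (median 6.74) in DIO-VSG, 6.54 to 11.78 (median 7.93) in DIO-CCR and 7.35 to 9.53 (median 8.13) in DIO-ICR. The DIO-ICR tumors all lay above the DIO-HFD and the CON-LFD tumors, and 4 of 6 DIO-CCR tumors stood above the highest DIO-HFD tumor. The differences from DIO-HFD were 2.36 ± 0.72 and 2.41 ± 0.72 (adjusted p = 0.146 and 0.152). Agpat2, which adds the second fatty acid and whose loss causes lipodystrophy, ran from 11.73 to 12.18 (median 11.93) in DIO-HFD, 11.53 to 12.01 (median 11.74) in CON-LFD, 11.66 to 12.49 (median 12.04) in DIO-VSG, 11.93 to 13.97 (median 12.34) in DIO-CCR and 11.77 to 12.77 (median 12.48) in DIO-ICR. Its differences were 0.66 ± 0.23 and 0.46 ± 0.23 (adjusted p = 0.202 and 0.474). Dgat2, one of the 2 enzymes that add the last fatty acid, differed by 2.22 and 1.79, and Dgat1, the other, by 0.23 and 0.28. Pck1, which feeds glycerol synthesis from pyruvate, differed by 1.43 and 1.13, and the phosphatidate phosphatase Lpin1 by 0.10 and 0.05. None of the 6 passed relative to DIO-HFD.

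**Figure D3:**
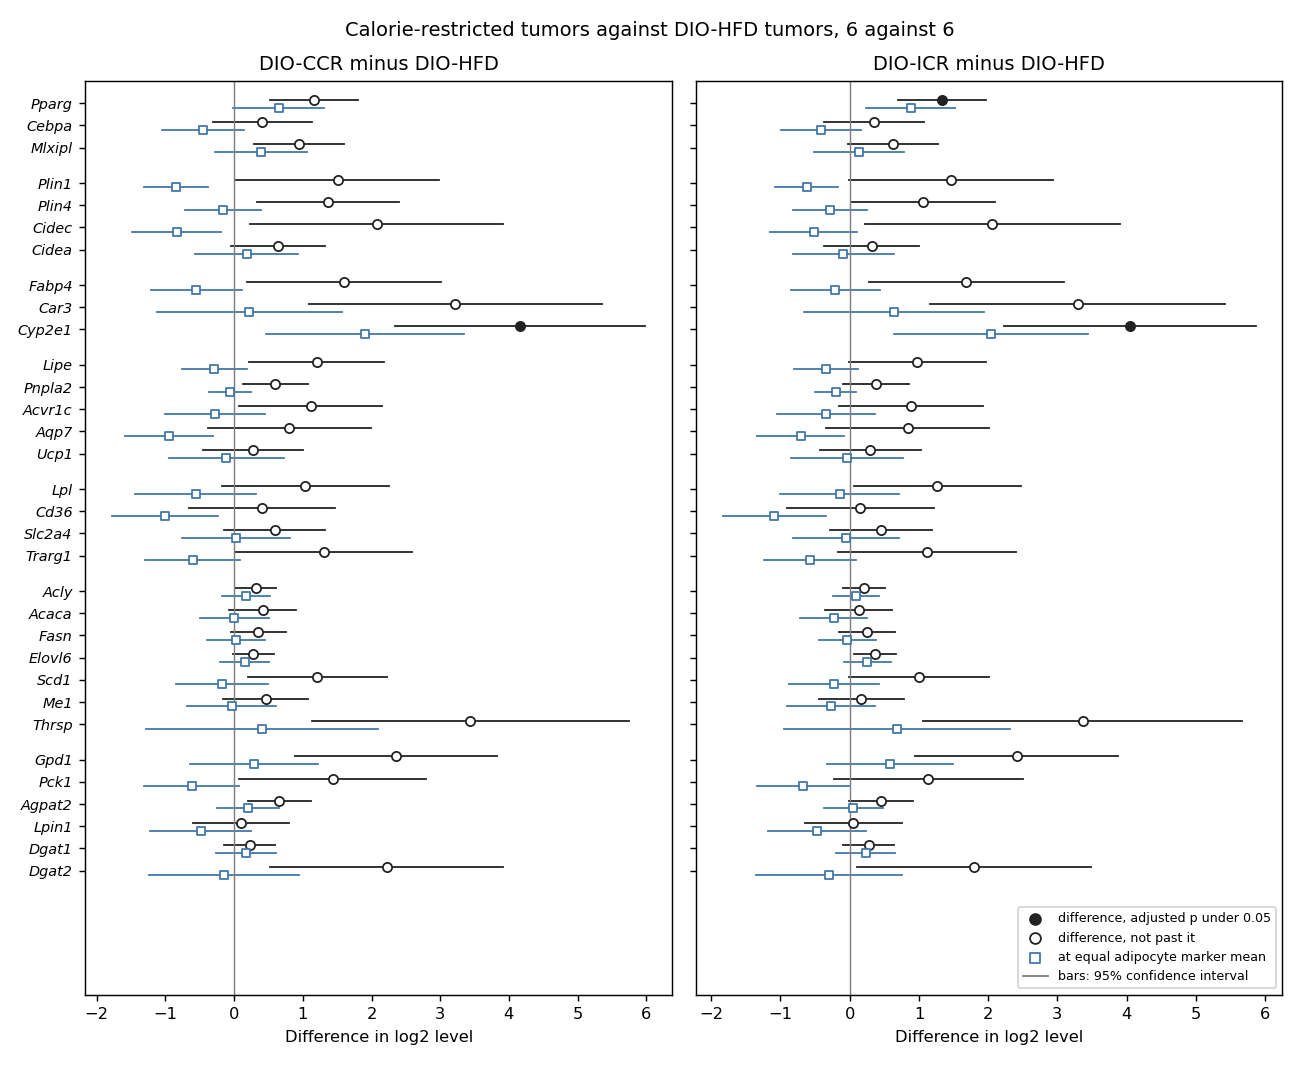
Differences in log2 level between DIO-CCR (left) or DIO-ICR (right) and DIO-HFD for the 32 genes in the order of their roles, with 95% confidence intervals; circles are plain differences, filled where the adjusted p was under 0.05, and squares are differences at equal adipocyte marker mean. All circles lie above 0, whereas 14 of 32 squares for DIO-CCR and 10 of 32 for DIO-ICR do. Because all 32 slopes were positive and the marker mean was higher in both groups, every square had to lie below its circle in value.

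To describe these genes at a given adipocyte marker mean, each gene was fitted on the group and that mean together. The slope is the change in a gene's log2 level for a rise of 1 in the marker mean among tumors of the same group. A slope near 1 means that a gene's log2 level rose as much as the marker mean, and a slope near 0 that it hardly changed with it. RNA from other cells also enters the level, so a shallow slope does not show that adipocytes add none. Some markers stayed low, such as Adig (3.21 to 5.24 over all tumors), so 1 is no fixed reference. All 32 slopes were positive and 20 of 32 passed by limma, where 5.25% of the 19495 genes other than the markers passed, 3.84% with a positive slope. The median slope over the 32 was 0.87, against -0.01 over all genes.

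Plin1 and Cidec, both of the lipid droplet, followed the adipocyte markers most closely by p. Plin1 had the smallest p of all genes tested (slope 1.47 ± 0.08, adjusted p = 3.23e-13), and Cidec ranked next to it (1.82 ± 0.11, adjusted p = 2.92e-12). Plin4 (0.96 ± 0.09), Fabp4 (1.34 ± 0.11), Car3 (1.88 ± 0.22) and Cyp2e1 (1.42 ± 0.24) passed too, and the droplet gene Cidea (0.29 ± 0.12, adjusted p = 0.195) did not. Of lipolysis and uptake, Lipe (0.93), Pnpla2 (0.41), Acvr1c (0.87), Aqp7 (1.09), Trarg1 (1.19), Lpl (1.00) and Cd36 (0.88) passed, and Ucp1 (0.24) and Slc2a4 (0.35) did not. In triglyceride assembly Dgat2 (1.48), Gpd1 (1.29), Pck1 (1.28) and Agpat2 (0.28) passed, whereas Lpin1 (0.37) and Dgat1 (0.03, 95% interval -0.11 to 0.18) did not.

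Fatty acid synthesis and the transcription factors mostly had shallow slopes. Thrsp (1.90 ± 0.28) and Scd1 (0.87 ± 0.11) were the 2 of 7 synthesis genes that passed. Elovl6 (0.08, 95% interval -0.04 to 0.20), Acly (0.09, -0.03 to 0.20), Fasn (0.20, 0.06 to 0.34), Acaca (0.26, 0.09 to 0.43) and Me1 (0.31, 0.09 to 0.53) did not, and all 5 intervals ended below 1. Among the factors Cebpa passed (0.54 ± 0.10), while Mlxipl (0.35) and Pparg (0.32, 95% interval 0.10 to 0.55, adjusted p = 0.0872) did not. How much carcinoma cells add to the levels of these genes was not tested.

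**Figure D4:**
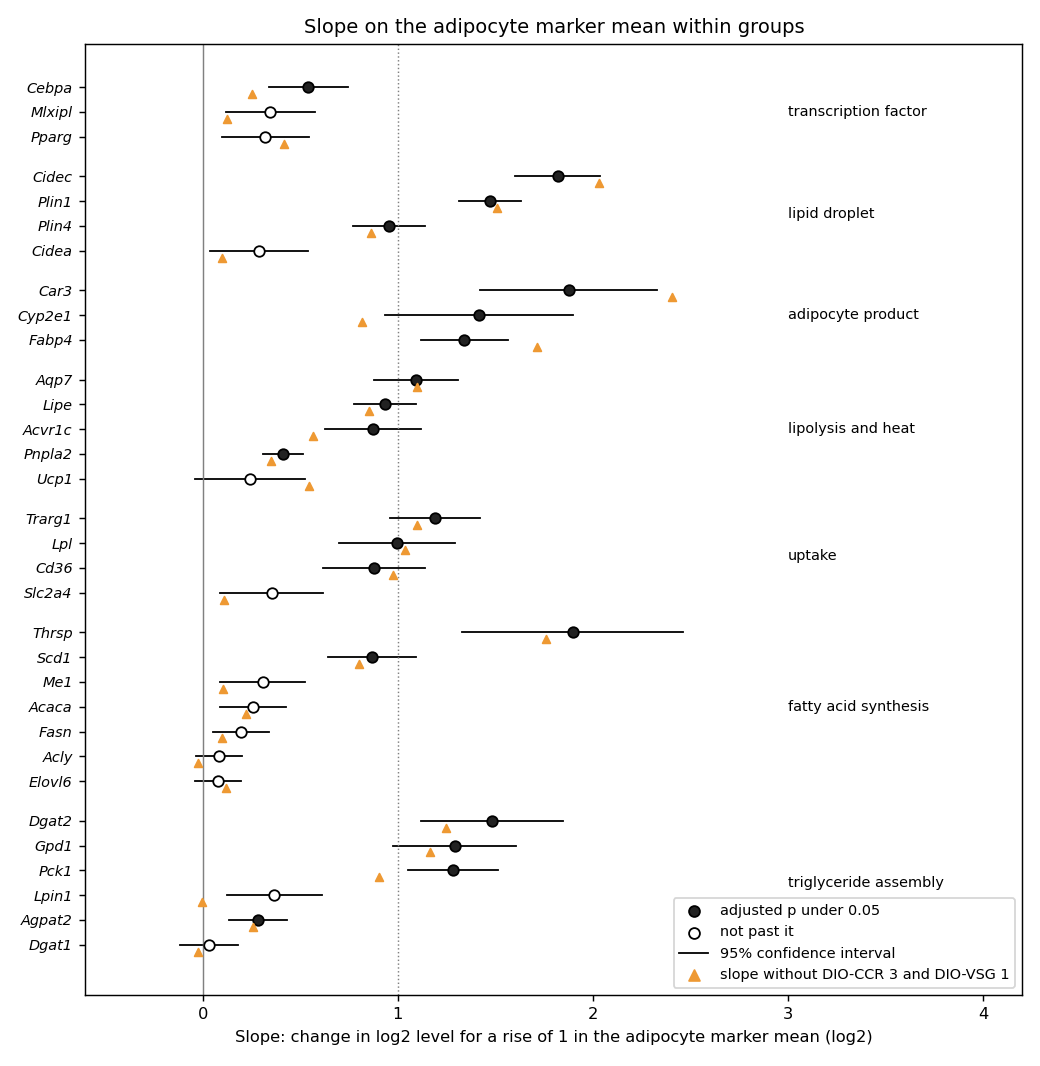
Slope of each gene on the adipocyte marker mean within groups (horizontal axis, log2 per log2) with its 95% confidence interval, by role; filled circles passed, and triangles are slopes without DIO-CCR 3 and DIO-VSG 1. Plin1, Cidec and Thrsp lie above 1, and Acly, Elovl6, Fasn and Dgat1 lie near 0.

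The count of slopes rested in part on the tumors with the highest marker mean. Without DIO-CCR 3 and DIO-VSG 1, 10 of 32 slopes passed, where 0.159% of all genes passed with a positive slope. These were Car3, Cidec, Plin1, Fabp4, Gpd1, Pck1, Trarg1, Aqp7, Plin4 and Lipe, all among the 20. Thrsp kept a slope of 1.76 and Dgat2 of 1.25 without passing (adjusted p = 0.16 and 0.0762), and the slope of Cyp2e1 went from 1.42 to 0.82 (adjusted p = 0.464). With any single array left out, 18 of the 20 passed. Cebpa was lost without DIO-VSG 1 (slope 0.39, adjusted p = 0.275) and Agpat2 without DIO-CCR 3 (slope 0.16, adjusted p = 0.122). DIO-VSG 1 also carried lymph node and mammary epithelial genes, and all 8 lymph node genes and 8 of 14 mammary epithelium genes had positive slopes that passed. Their part in the slopes was not tested beyond the fit without the lymph node tumors, in which 20 of 32 passed, 19 of them shared.

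Slopes fitted in each group on its own are given as a description. Thrsp had slopes of 0.39 in CON-LFD and 0.07 in DIO-HFD, against 1.83 (DIO-VSG), 2.85 (DIO-CCR) and 2.82 (DIO-ICR). Cidec had slopes of 2.75, 2.51, 1.77, 1.58 and 1.24 in the same order. In CON-LFD and DIO-HFD the level of Thrsp lay between 3.47 and 4.38, close to the low end of the scale. Whether that flattened its slopes there was not tested. At a like marker mean, DIO-HFD 5 (5.98) held Thrsp at 4.33 and Cidec at 8.61. DIO-VSG 5 (6.14) held Thrsp at 8.30 and Cidec at 8.31. This pair of tumors was chosen after the values were seen. Their single markers differed in both directions. Retn stood at 5.51 in DIO-HFD 5 and at 9.54 in DIO-VSG 5, whereas Lep was higher in DIO-HFD 5. The 2 tumors are also among those that carried lymph node genes. The part of these differences in the Thrsp levels was not tested. An F-test of a slope per group against 1 slope, chosen after the data were seen, passed for 1 of 32 genes, Cidea (adjusted p = 0.0476), where 0.0923% of all genes passed. At an unadjusted p under 0.05 it gave 13 of 32, against 11.8% of all genes. Without the 2 fat-rich tumors it passed for 0 of 32, where 0% of all genes passed, and gave 7 of 32 at an unadjusted p under 0.05, against 6.69% of all genes. For Thrsp it did not pass (adjusted p = 0.422), so the slopes of Thrsp are not shown to differ between groups.

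**Figure D5:**
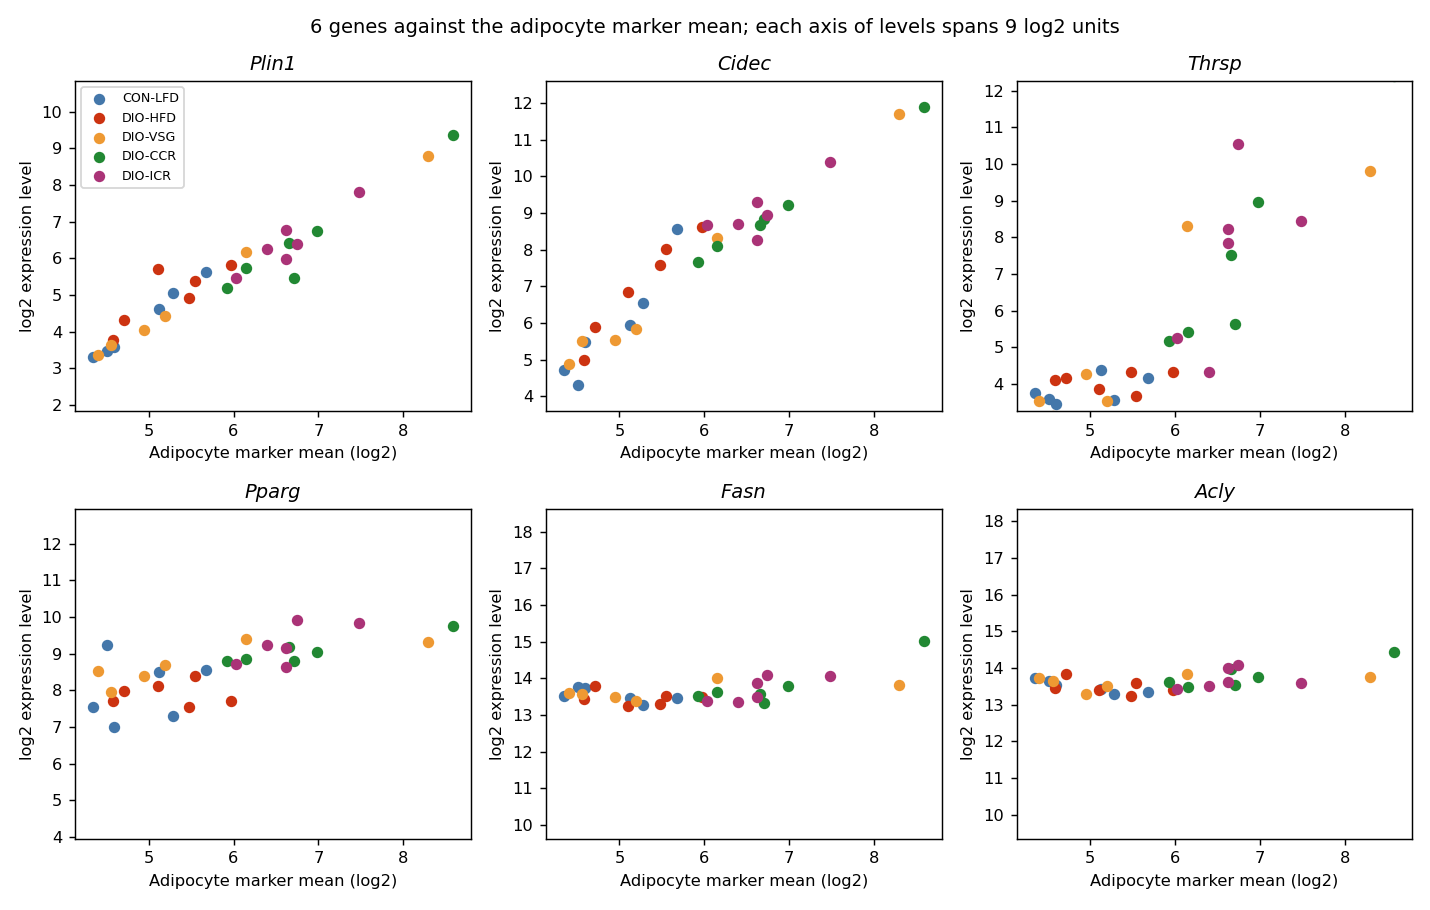
Log2 levels of Plin1, Cidec, Thrsp, Pparg, Fasn and Acly (vertical axes, each spanning 9 log2 units) against the adipocyte marker mean of the same tumor (horizontal axis), colored by group. Plin1 and Cidec climb with the markers in all groups, and Fasn and Acly run nearly level apart from DIO-CCR 3. Thrsp stays below 4.40 in CON-LFD and DIO-HFD, close to the low end of the scale.

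At equal adipocyte marker mean, no group difference of the 32 genes passed. Relative to DIO-HFD, 0 of 32 had an adjusted p under 0.05 by limma, where 0.246% of all genes passed for DIO-CCR, 0.118% for DIO-ICR, 0.18% for DIO-VSG and 1.12% for CON-LFD. At an unadjusted p under 0.05 there were 5, 6, 5 and 3 of 32 in that order, against 12.3%, 10.5%, 9.99% and 13% of all genes. In the other 6 comparisons 0 of 32 passed as well. Relative to CON-LFD, 0.0462% of all genes did for DIO-CCR, 0.138% for DIO-ICR and 0.0103% for DIO-VSG, with 6, 6 and 1 of 32 at an unadjusted p under 0.05 (11.2%, 12.3% and 7.36% of all genes). Relative to DIO-VSG, 1.31% of all genes passed for DIO-CCR and 0.333% for DIO-ICR, with 2 and 6 of 32 at an unadjusted p under 0.05 (14.4% and 12.3% of all genes). Between DIO-CCR and DIO-ICR 0% of all genes passed, with 0 of 32 at an unadjusted p under 0.05 (5.35% of all genes).

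The differences from DIO-HFD in the restricted groups had to fall in this fit. All 32 slopes were positive and the marker mean was higher in both restricted groups, so the fall is no separate result. The median difference over the 32 went from 0.99 to -0.09 in DIO-CCR and from 0.86 to -0.21 in DIO-ICR. Cyp2e1 kept the largest differences of the 32 from DIO-HFD, 1.90 (95% interval 0.46 to 3.34, adjusted p = 0.243) in DIO-CCR and 2.04 (0.65 to 3.44, adjusted p = 0.25) in DIO-ICR. Pparg differed by 0.65 (-0.02 to 1.32) and 0.88 (0.23 to 1.53, adjusted p = 0.292). The intervals of Cyp2e1 in both groups and of Pparg in DIO-ICR lay above 0 before adjustment over genes. Car3 went to 0.22 and 0.64 and Thrsp to 0.41 and 0.68, each with an interval on both sides of 0. Plin1 (-0.85 and -0.62), Aqp7 (-0.95 and -0.71) and Cd36 (intervals -1.78 to -0.23 and -1.84 to -0.34) were lower in sign than in DIO-HFD, with intervals below 0 before adjustment. Cidec in DIO-CCR and Pck1 in DIO-ICR were lower in the same way. With Cyp2e1, and with Pparg in DIO-ICR, they make up the 5 and 6 of 32 at an unadjusted p under 0.05. Beside 12.3% and 10.5% of all genes these counts are not clearly set apart, and none of the genes passed. The covariate itself differed between the groups, so these estimates rest on the slope being shared. It also holds Retn, which itself rose in both restricted groups relative to DIO-HFD. The fit therefore cannot separate the amount of fat from the level of the markers per adipocyte. With all tumors, the test of a slope per group had an unadjusted p under 0.05 for 13 of the 32, Acaca (6.9e-05), Fasn (0.0014), Cyp2e1 (0.00189) and Cidec (0.00896) among them.

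Fasn, Acly, Acaca and Elovl6 lay between -0.23 and 0.25 of DIO-HFD on this scale. Their differences from DIO-HFD at equal marker mean were 0.03, 0.18, 0.00 and 0.15 in DIO-CCR. In DIO-ICR they were -0.03, 0.09, -0.23 and 0.25. The widest of these 8 intervals, that of Acaca in DIO-CCR, ran from -0.50 to 0.51.

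Promoters are shown for 2 genes with steep slopes, Plin1 and Thrsp, and 2 with shallow ones, Fasn and Acly, to set the sequences beside the slopes of 1.47, 1.90, 0.20 and 0.09. Each holds 250 bases before and 50 after the start, 5′ to 3′ on the minus strand that all 4 genes use, from RefSeq on GRCm38.p6. Capitals mark matches on either strand to 6 motifs. AGGTCA is the hexamer that nuclear receptors such as Pparg bind. CACGTG is an E-box, the core of the sites of ChREBP. TCACNCCAC is a sterol element. CCAAT is the box bound by the factor NF-Y. GGGCGG is the GC box of factors such as Sp1. TATAAA is the core promoter element of that name.
Plin1, chr7:79732727-79733026: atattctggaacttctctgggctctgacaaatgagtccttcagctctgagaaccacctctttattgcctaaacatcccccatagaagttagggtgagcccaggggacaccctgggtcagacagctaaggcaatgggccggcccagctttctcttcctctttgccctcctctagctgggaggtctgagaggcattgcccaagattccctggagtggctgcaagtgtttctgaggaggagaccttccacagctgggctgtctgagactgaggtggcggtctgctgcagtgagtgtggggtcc
Thrsp, chr7:97417501-97417800: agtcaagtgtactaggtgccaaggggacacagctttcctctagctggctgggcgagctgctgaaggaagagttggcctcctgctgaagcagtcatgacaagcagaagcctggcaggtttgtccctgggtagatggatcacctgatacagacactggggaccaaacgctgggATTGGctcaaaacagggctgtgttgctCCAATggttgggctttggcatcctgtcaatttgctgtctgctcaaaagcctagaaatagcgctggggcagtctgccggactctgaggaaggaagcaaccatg
Fasn, chr11:120824498-120824797: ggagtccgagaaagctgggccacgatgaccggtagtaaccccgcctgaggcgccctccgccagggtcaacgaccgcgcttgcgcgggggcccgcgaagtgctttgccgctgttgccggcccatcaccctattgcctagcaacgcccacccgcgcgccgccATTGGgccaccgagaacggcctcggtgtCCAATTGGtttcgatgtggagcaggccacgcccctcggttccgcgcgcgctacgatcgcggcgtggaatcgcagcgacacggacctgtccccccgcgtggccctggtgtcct
Acly, chr11:100527951-100528250: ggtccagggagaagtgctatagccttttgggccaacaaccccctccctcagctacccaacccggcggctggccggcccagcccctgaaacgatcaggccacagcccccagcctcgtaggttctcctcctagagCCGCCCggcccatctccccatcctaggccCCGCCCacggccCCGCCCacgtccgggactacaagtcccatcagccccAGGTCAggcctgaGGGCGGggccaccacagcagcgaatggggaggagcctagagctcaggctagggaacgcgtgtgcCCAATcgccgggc
The Plin1 window held none of these letters. Thrsp held 2 and Fasn 3 matches to CCAAT or its reverse, 2 of the latter overlapping by 2 bases. Acly held 4 GC boxes, 1 nuclear receptor hexamer and 1 CCAAT box. Promoters were at hand for 22 of the 32 genes. The nuclear receptor hexamer was found in 7 of the 22 (16.3% of all 32851 promoters), the CCAAT box in 9 (37.4%) and the GC box in 10 (35.7%). The TATAAA element was found in 3 (13.6%), the E-box in 2 (7.15%) and the sterol element in 1, Mlxipl (1.24%). A direct repeat of the hexamer with 1 base between was found in 0 (0.0396%). A match is a description of the letters only.

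Further genes of the same pathways, from lists drawn up with earlier results of these tumors known, did not pass in DIO-CCR or DIO-ICR relative to DIO-HFD. Relative to DIO-HFD, 0 of 17 other genes of fatty acid synthesis and carbon supply passed in DIO-CCR or DIO-ICR, with median differences of 0.01 and -0.02. The same held for 0 of 18 genes of triglyceride handling and droplets (0.01 and -0.08) and for 0 of 11 of lipid uptake (-0.02 and -0.09). At an unadjusted p under 0.05 these lists had 3, 3 and 1 genes in DIO-CCR, where 12.1% of all genes had such a p in either direction, and 1, 2 and 0 in DIO-ICR (10.8%). Of 16 adipogenic and lipogenic factors 0 passed in DIO-CCR or DIO-ICR (4 and 3 at an unadjusted p under 0.05), and 1, Cebpd, an early factor of adipocyte differentiation that stress hormones also induce, was higher in CON-LFD than in DIO-HFD (2.11 ± 0.44, adjusted p = 0.0149). Of 14 cholesterol synthesis genes 0 passed in any comparison with DIO-HFD, and at an unadjusted p under 0.05 there were 6 in CON-LFD (12.2% of all genes), 6 in DIO-VSG (10.4%), 0 in DIO-CCR and 0 in DIO-ICR.

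On the adipocyte marker mean, 4 of the 18 triglyceride and droplet genes had positive slopes that passed, namely the monoglyceride lipase Mgll (0.76), the carboxylesterase Ces1d (0.88), Bscl2 (0.40), which encodes seipin of the droplet neck, and Gpam (0.23), which starts glycerolipid synthesis. Lpin2 (-0.16) had a negative slope that passed. Of the 17 synthesis genes 2 passed, the mitochondrial citrate carrier Slc25a1 (0.43) and Pnpla3 (0.65), and of the 11 uptake genes 1 did, Sort1 (0.59). Over all genes other than the markers 5.25% passed, 3.84% with a positive slope. In lists this short, counts of 1 or 2 are not set apart from that share. Of the 16 factors, Ebf1 (1.17), which acts early in adipocyte commitment and in B cells, Irs1 (0.72) and Irs2 (0.39), adaptors of the insulin receptor, had positive slopes that passed. Insig2 (-0.27) had a negative one that passed. All 14 cholesterol synthesis genes had slopes below 0, and 0 passed.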

How the data were processed

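RNA from 30 E0771 mammary tumors, 6 per group, was read on mouse Clariom S HT arrays, 1 array per tumor. The authors checked quality and summarised probes by SST-RMA (robust multi-array averaging after a signal space transformation) in Transcriptome Analysis Console, and deposited 1 log2 expression level per probe set. This pulls array distributions together, so levels are relative within the series. For the array's probes, no genome build was stated in the labels or methods. The number of arrays limits the precision. Each tumor came from a mouse of its own, so p-values measure the spread between mice of 1 experiment.

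Of 22206 probe sets, 19572 have 1 gene symbol in the platform annotation and 2634 have none or several. The brightest probe set was kept for each of 19505 named genes. Groups came from the sample labels. Differences were fitted with limma 3.58.1 in R 4.3.3 on all 30 arrays with 5 group means (empirical Bayes, no filter on low values, no covariate), over 10 comparisons. Benjamini-Hochberg adjustment ran over all genes within a comparison, and a gene passed at an adjusted p under 0.05. Slopes came from a second limma fit on the group and the adipocyte marker mean over 19495 genes, leaving out the markers. The marker mean was compared by a two-sided exact permutation test over 924 splits. Intervals are 95% confidence intervals and errors of differences are standard errors. The procedure was tested on simulated data.

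The 35 genes, the other lists and the tests were chosen with earlier results of these data known. Group values are given in full for each gene that passed in any comparison, in the F-test over groups or at equal marker mean, and in each role for the 2 genes with the smallest F-test p. Other genes are given by differences, ranges or counts, and those singled out for a tumor or a range were chosen after their values were seen. Alternatives were quantile normalization, centring of each array on its median, a filter that drops the dimmest 30% of genes, a trended robust variance, a fit on every probe set, array weights, only the groups compared, leaving out each array, leaving out tumors with muscle or lymph node genes, and the marker mean as a covariate. The fit without DIO-CCR 3 and DIO-VSG 1, Adipoq as a covariate for group differences and a slope per group were added after the data were seen.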

Additional observations from a re-analysis of the deposited data

Results flagged for a closer look

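For each of the 32 genes and the marker mean in each of the 5 groups, the highest and the lowest tumor were compared with the rest of their group by Dixon's ratio of the gap to the range. Of 165 groups, 21 had a tumor past the critical value. Chance flags about 5% of groups, but all genes were read in the same tumors, so these groups are not independent. Most of the flags came from the tumors with the highest marker mean in DIO-CCR and DIO-VSG. The count of 21 therefore cannot be weighed against that share.

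DIO-CCR 3 stood above its group for 9 genes. Its levels were 9.35 for Plin1, 11.88 for Cidec, 12.77 for Cyp2e1, 10.90 for Lipe, 13.39 for Pnpla2, 9.05 for Aqp7 and 10.38 for Trarg1. Fasn and Me1 stood at 15.01 each there, against at most 13.78 and 12.77 in the other DIO-CCR tumors. The adipocyte marker mean of this tumor was 2.78 above the median array and the muscle mean 1.17 above it, and their part in these levels was not tested.

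DIO-VSG 1 stood above its group for 7 genes, with 8.70 for Cebpa, 8.15 for Plin4, 10.73 for Lipe, 12.91 for Pnpla2, 13.39 for Lpl, 13.94 for Cd36 and 10.43 for Lpin1. In this tumor the lymph node mean was 6.56 and the adipocyte marker mean 2.49 above the median array, and their part in these levels was not tested.

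DIO-VSG 5 stood apart for Ucp1 (5.26, against at most 2.68 in the other DIO-VSG tumors) and for Cidea (4.08, against at most 3.64). DIO-HFD 5 stood apart for Plin4 (5.81) and DIO-HFD 6 for Ucp1 (2.66). CON-LFD 4 was the low tumor of its group for Acaca (10.53, against at least 10.81).

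The slope of Cidea on the adipocyte marker mean differed between groups (F-test of limma over all genes, adjusted p = 0.0476). Without DIO-CCR 3 and DIO-VSG 1 the adjusted p was 0.886.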

How the results depend on the processing

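Counts below are of the 32 genes. Quantile normalization, centring, the filter on dim genes (which left out Mlxipl, Cidea and Ucp1), all probe sets and the trended variance moved no count of calls by over 1.5 times, though quantile normalization lost Pparg (3 to 2) and the trended variance added Elovl6 (3 to 4) in DIO-ICR against CON-LFD. The share of all genes that passed there was 1.57% in the main fit, 1.53% with quantile normalization and 2.06% with the trended variance. Array weights moved 1 count, from 3 to 6 in DIO-ICR against CON-LFD, where 2.43% of all genes passed. With only the groups compared in the fit, 1 gene (Me1) passed for CON-LFD against DIO-HFD (0.872% of all genes) and 4 for DIO-ICR against DIO-HFD (0.502%). Against CON-LFD, 0 passed for DIO-CCR (0.0666%) and 8 for DIO-ICR (1.35%). For DIO-CCR against DIO-HFD that fit called Pparg in place of Cyp2e1, where 0.0923% of all genes passed.

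Without the tumors with muscle genes, 0 passed for DIO-CCR against DIO-HFD (0.108% of all genes) and 0 against CON-LFD (0.0461%). Without those with lymph node genes, 1 passed for DIO-ICR against DIO-HFD (0.559% of all genes) and 1 (Cidec) for DIO-ICR against DIO-VSG (0.0769%). Against CON-LFD, 7 passed for DIO-CCR (0.81% of all genes) and 8 for DIO-ICR (2.64%). Without DIO-CCR 3 and DIO-VSG 1, DIO-ICR had 4 against DIO-HFD (1.11% of all genes), 15 against CON-LFD (3.18%) and 3 (Cyp2e1, Trarg1 and Cidec) against DIO-VSG (0.256%). In that setting 10 slopes passed, where 0.159% of all genes passed with a positive slope. With the marker mean or Adipoq as a covariate, 0 passed for DIO-CCR or DIO-ICR against either DIO-HFD or CON-LFD. The marker mean of DIO-VSG against DIO-HFD turned from 0.36 to -0.31 without the lymph node tumors and to -0.19 without the 2 fat-rich ones. Neither DIO-CCR 3 nor DIO-VSG 1 belongs to DIO-ICR, DIO-HFD or CON-LFD, so the differences between these groups stayed the same without them. Car3 was 4.91 higher in DIO-ICR than in CON-LFD in both fits. Only the spread shared by all groups and the adjustment over genes changed there. Beyond this and the changed sets of tumors, the causes of the shifts were not tested.

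With each array left out in turn, counts ranged from 0 to 1 for DIO-CCR and 0 to 2 for DIO-ICR against DIO-HFD, and from 0 to 2 and 0 to 4 against CON-LFD. They stayed at 0 to 0 in the other comparisons. Slopes that passed ranged from 19 to 22. The marker mean differed from DIO-HFD by -0.46 to -0.16 in CON-LFD, -0.19 to 0.59 in DIO-VSG, 1.25 to 1.78 in DIO-CCR and 1.25 to 1.56 in DIO-ICR. No paired analysis was possible because the labels give no replicate numbers that the groups share. With 6 tumors a group, a gene that did not pass is not shown to be unchanged.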
